A study of Arabidopsis thaliana with 6 samples.

Results

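The regions described here are the places on the arms of the Arabidopsis thaliana chromosomes where FLAG-tagged EBS (EARLY BOLTING IN SHORT DAYS) gave peaks that touched no annotated gene. Tagged EBS was pulled down with its bound chromatin and the DNA sequenced (ChIP-seq). The 3 ChIP samples came from whole Col-0 seedlings about 10 days old, kept in 16 h of light and 8 h of dark, and were collected with an anti-FLAG antibody. The plants were ebs shl mutants, lacking EBS and its relative SHL, with a FLAG-tagged EBS transgene under the native EBS promoter. The 3 input DNA samples carried the same mutations and transgene, and no separate values of theirs were used here. Whether the transgene was studied in 1 line or several is not given in the sources used here, nor is whether the replicates were grown apart, and any spread between lists can be technical. Untagged plants were not among the samples analysed here, so EBS binding and background that recurs in the procedure cannot be told apart. The number of reads behind a peak list is unknown.

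Overlapping nuclear peaks of the 3 lists (by 1 bp or more) were joined into 7956 regions, and 2812 of these held peaks of at least 2 lists. Of these, 1678 had their midpoint on a chromosome arm, outside the pericentromeric limits. These limits were 11.5 to 17.7 Mb on chromosome 1, 1.1 to 7.2 Mb on chromosome 2, 10.3 to 17.3 Mb on chromosome 3, 1.5 to 6.3 Mb on chromosome 4 and 9.0 to 16.0 Mb on chromosome 5. The regions were chosen by the measured peaks and their positions: 89 of the 1678 arm regions overlapped no body of a protein-coding gene, non-coding RNA gene or pseudogene. The other 1589 lay on a gene. What the rule used, which is the presence of peaks and the absence of a gene, is given below as a description. Transposon sequence that is not annotated as a gene was not analysed here, and whether any of the 89 regions lies on it was not tested. A pseudogene here is any gene whose annotated biotype names one. Any transposon genes in that class were not told apart.

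EBS carries domains that bind methylated tails of histone H3, including marks of active promoters and of Polycomb-silenced chromatin, and it is known as a repressor of flowering. Sequence between Arabidopsis genes holds promoters, terminators and regulatory elements that can act on a neighbouring gene, as well as transposon remnants. Intergenic gaps on the arms are mostly short, and the pericentromeric blocks that flank the centromeres are rich in transposons and poor in genes. A ChIP-seq peak is a stretch with more immunoprecipitated fragments than the background model of the peak caller allows.

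Most of the 89 regions lay within 1000 bp of a gene end. The edge of the region was a median of 592 bp from the nearest gene end (quartiles 224 and 959 bp, range 15 to 3749 bp). On the other side the nearest gene end was a median of 1811 bp away (range 81 to 5156 bp). Measured to protein-coding genes alone, the nearest end was a median of 771 bp away (quartiles 342 and 1688 bp, range 15 to 8752 bp). Of the 89 regions, 24 lay within 250 bp of a gene end, 40 within 500 bp, 68 within 1000 bp and 82 within 2000 bp. For protein-coding genes the counts were 17, 28, 56 and 73. Gene ends on both sides lay within 1000 bp for 26 regions. Between its flanking gene ends a region was a median of 43.5% off centre, where 0 is the middle and 100 a gene end. It was over 50% off centre for 36 of the 89. The length of a gap limits these distances, and they were not compared with random placement. The nearest gene was protein-coding for 70 regions, a pseudogene for 11 and a non-coding RNA gene for 8. Strand was not used here, so a gene end can be a start or a stop of transcription.

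**Figure D1:**
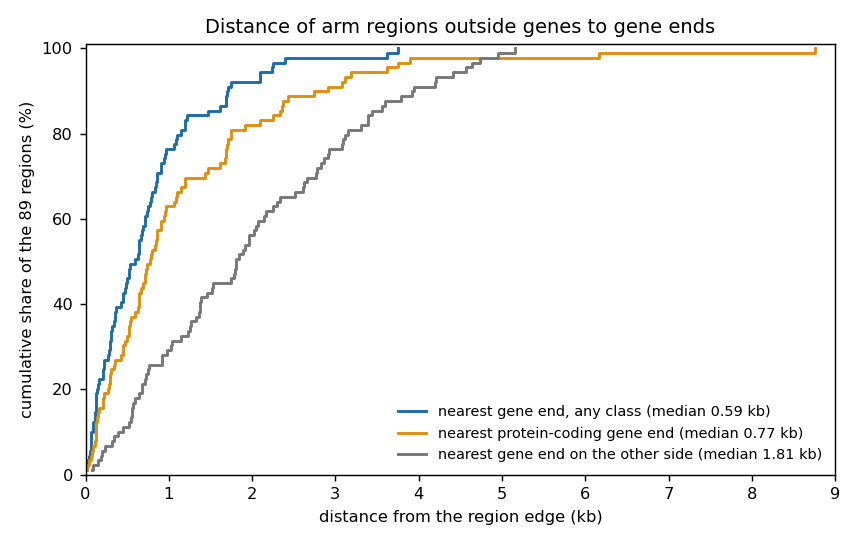
Cumulative share (%) of the 89 arm regions outside genes, by distance (kb) from the region edge to the nearest gene end of any class, the nearest protein-coding end, and the nearest gene end on the other side. The medians are 592, 771 and 1811 bp, and the longest distance to a protein-coding gene is 8752 bp.

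The 3 regions closest to a gene and the 3 farthest from one are given with their scores. A score is the authors' own value from the peak caller, 10 times the negative log10 of a peak's p-value. It starts at about 20 in each list and was compared only within a list. The region closest to a gene, chr2:10148018-10148616, lay 15 bp from AT2G23834 and scored 23.57 and 24.13 in replicates 1 and 2, with no peak in replicate 3. A region 18 bp from the pseudogene AT2G01022, chr2:12880-13244, had no peak in replicate 1 and scores of 30.79 and 143.75 in replicates 2 and 3. The region 23 bp from AT3G15590, chr3:5278043-5278675, had 33.26, 39.94 and 59.51 in replicates 1, 2 and 3. None of their peaks lay above the 55.8 percentile of its list.

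At the other end, chr5:8700858-8701588 lay 3749 bp from the cytochrome P450 gene CYP71B14 and 5156 bp from ESE3, an ethylene response factor gene, with scores of 53.45, 40.12 and 67.77. The region chr5:24694813-24695621 lay 3625 bp from MYB28, which encodes a regulator of glucosinolate synthesis, and 3792 bp from AT5G08995, with 719.49, 629.35 and 177.69. The region chr3:9738937-9740420 lay 3395 bp from AT3G26530 and 2391 bp from AT3G00450, with 108.24 and 86.47 in replicates 1 and 2 and no peak in replicate 3. AT3G26530 is a pseudogene, AT3G00450 and AT5G08995 are non-coding RNA genes, and the nearest protein-coding end to the third region was 3187 bp away. The peaks of the MYB28 region were at the 90.1, 86.7 and 59.5 percentile, while those of the CYP71B14 region were at 63.9, 48.0 and 42.6.

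Annotated gaps between genes that hold such regions were long. The 24142 gaps on the arms had a median length of 626 bp, and 82 of them (1088 to 9636 bp, median 3272 bp) held one of the 89 regions. A region with no gene overlap cannot sit in a gap shorter than itself, so the absence of regions from the 15374 gaps of up to 1 kb is close to fixed by the rule. Above that length the share of gaps with a region was 0.368% for gaps of 1 to 2 kb (17 of 4624), 1.09% for 2 to 3 kb (21 of 1935), 1.53% for 3 to 4 kb (15 of 982), 2.30% for 4 to 5 kb (13 of 565) and 2.60% for 5 to 10 kb (16 of 616). None of the 46 gaps over 10 kb held one. Per megabase of gap the regions numbered 2.59 for 1 to 2 kb, 4.66 for 2 to 3 kb, 4.43 for 3 to 4 kb, 5.55 for 4 to 5 kb and 5.23 for 5 to 10 kb. The share per gap was higher in each longer class up to 10 kb, whereas the number per megabase lay between 4.43 and 5.55 for the classes from 2 to 10 kb. Regions were up to 2205 bp long and had to fit whole in a gap, so the rule can also lower the values for 1 to 2 kb. Gaps are not independent replicates, and neither pattern was tested.

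**Figure D2:**
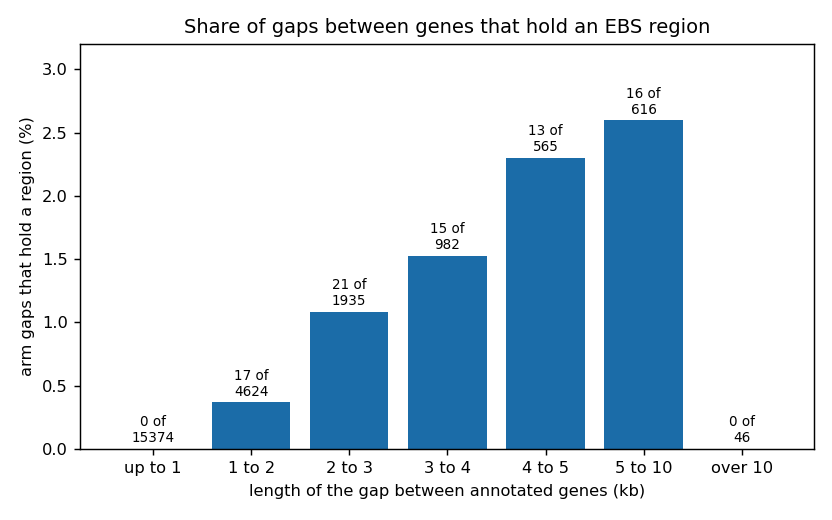
Share of gaps between annotated genes on the chromosome arms (%) that hold a region, by gap length (kb), with counts above the bars. The share is 0.368% for gaps of 1 to 2 kb and 2.60% for gaps of 5 to 10 kb. A region had to fit whole in its gap, which limits the shorter classes.

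The genes beside the regions included annotated pseudogenes in a larger share than those beside gaps in general. Whether these are decayed genes or transposon genes was not checked. Of the 89 regions, 55 (61.8%) lay between a pair of protein-coding genes, against 70.8% of the 8132 arm gaps at least as long as the shortest gap with a region. A protein-coding gene and a pseudogene flanked 13 regions (14.6%), against 6.85% of gaps. A non-coding RNA gene and a pseudogene flanked 6 regions (6.74%) against 0.959%, and a pair of pseudogenes flanked 2 (2.25%) against 0.553%. A protein-coding gene and a non-coding RNA gene flanked 13 regions (14.6%) against 19.4%, and a pair of non-coding RNA genes none against 1.51%. The gaps with a region were also longer, with a median of 3272 bp against 2026.5 bp for the 8132, and the part of gap length in these shares was not tested.

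The number of regions per length of arm differed between chromosomes, which was not tested. Chromosome 5 held 28 of the 89, which is 14.0 per 10 Mb of arm (to the last gene) and 7.57% of the shared arm regions of that chromosome. Chromosome 1 held 17 (7.02 per 10 Mb, 3.85%), the lowest density of the 5. The other chromosomes lay between, with 15 on chromosome 2 (5.42%), 16 on chromosome 3 (9.72 per 10 Mb, 4.97%) and 13 on chromosome 4 (9.43 per 10 Mb, 4.85%). Within 1 Mb of the limit at 9.0 Mb, chromosome 5 held 8 of its regions, which lay between chr5:8155232 and chr5:8934898. Over all arms, 21 of the 89 regions (23.6%) lay within 1 Mb of an arm limit, against 153 of the 1589 regions on a gene (9.63%). The 2 regions nearest to a limit were chr1:11454090-11455891, 45.0 kb from it with scores of 622.78, 816.11 and 507.65, and chr5:8933927-8934898, 65.6 kb from it with 29.33 and 89.09 in replicates 1 and 2 and no peak in replicate 3. Just past a limit, and therefore left out, lay chr4:6282983-6283759 (16.6 kb; 45.88, 105.56 and 44.02) and chr4:6279973-6280636 (19.7 kb; 159.52, 68.01 and 183.07). The arm regions with the least gene overlap, also left out, were chr2:15595414-15596104, which covered 1 bp of AT2G37125 with scores of 30.64, 39.44 and 36.14, and chr3:17394976-17395952, which covered 13 bp of AT3G47240 with 28.36 and 74.75 in replicates 1 and 2 and no peak in replicate 3. These are given as a description, with no test.

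Another shared region lay near the 89 in a larger share than near arm regions on a gene. The next shared region lay a median of 6595 bp away, against 14976 bp for arm regions on a gene. It was within 1000 bp for 28 of the 89 (31.5%), against 194 of 1589 (12.2%), and within 5 kb for 42 of 89 (47.2%), against 26.4%. Among regions of at most 1000 bp the shares within 1000 bp were 15 of 53 (28.3%) against 46 of 290 (15.9%), and among those in all 3 lists 27 of 60 (45.0%) against 118 of 847 (13.9%). The gap that held a region held a second for 14 of the 89, that is 7 pairs in which the members lay 140 to 681 bp apart. A shared region lay on the body of a gene that bordered the gap for 32 of the 89, and on both bordering genes for 4. No such share was taken for other arm gaps, so whether these counts are high is unknown. Region positions are not independent, and the difference was not tested.

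Peaks were present in replicates 1, 2 and 3 for 78, 83 and 77 of the 89 regions. In all 3 lists 60 of the 89 had a peak (67.4%), against 63.3% of all 2812 regions with peaks in at least 2 lists. Of the other 29, 12 lacked a peak in replicate 3, 6 lacked one in replicate 2 and 11 lacked one in replicate 1. Arm regions on a gene were in all 3 lists in 847 of 1589 cases (53.3%) and in replicates 1 and 2 alone in 466 (29.3%). Pericentromeric regions outside genes were in all 3 lists in 168 of 212 cases (79.25%). A score of at least 100 in every list with a peak was found for 37 of the 89 (41.6%), against 40.0% of the 2812 and 32.0% of the 1589 on a gene. That cutoff passed 27.5%, 32.0% and 50.4% of all peaks in replicates 1, 2 and 3. These shares therefore also depend on which lists hold the peaks of a class. The shares for the 89 were close to those of all shared regions, and the rule itself required at least 2 lists.

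Peaks were joined into a region by overlap, which limits how far apart their centres can lie. The bases covered by every list with a peak were a median of 54.4% of the region. The least was 6 bp (0.654%). Of the 89, 85 had 1 peak in each list that held any, and 4 had more. The centres of the best peaks lay a median of 93 bp apart for replicates 1 and 2 (72 regions, at most 488 bp), 79.5 bp for replicates 1 and 3 (66 regions, at most 555 bp) and 98.5 bp for replicates 2 and 3 (71 regions, at most 539 bp). The regions were short. Their median length was 841 bp (quartiles 694 and 1184, range 365 to 2205), against 1491 bp (range 381 to 11039) for arm regions on a gene. The best peak in replicates 1, 2 and 3 had a median width of 647, 709 and 584 bp, against 1013.5, 1267 and 867 bp on a gene. The difference was -402.5 ± 141 bp (SD, n = 3 lists). Longer peaks more often touch a gene, so the rule favours short regions and this difference is a description, with no test.

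Score ranks of the 89 against arm regions on a gene went in different directions in the lists. Ranks were percentiles of the best peak of a region among all nuclear peaks of its list. In replicate 1 the median percentile was 74.2 (n = 78) against 67.7 (n = 1456), in replicate 2 it was 71.3 (n = 83) against 63.8 (n = 1446), and in replicate 3 it was 57.6 (n = 77) against 68.8 (n = 1123). The difference, outside genes minus on a gene, was 6.58, 7.55 and -11.2, with a mean of 0.97 ± 10.6 percentile points (SD, n = 3 lists). The two-sided exact sign-flip permutation p was 1, where 3 lists cannot give less than 0.25. Among regions of at most 1000 bp the differences in replicates 1, 2 and 3 were 25.7, 21.0 and -0.90, with a mean of 15.3 and an exact permutation p of 0.5. Leaving out replicate 3 gave a mean of 7.07, and leaving out replicate 1 or 2 gave -1.84 or -2.32. Among regions in all 3 lists the median percentiles were 79.5, 77.2 and 62.5, against 81.4, 79.3 and 78.4 on a gene. There the differences had 1 direction, at -1.83, -2.15 and -15.8 in replicates 1, 2 and 3. Their mean was -6.60, with an exact sign-flip permutation p of 0.25, the least that 3 lists can give.

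**Figure D3:**
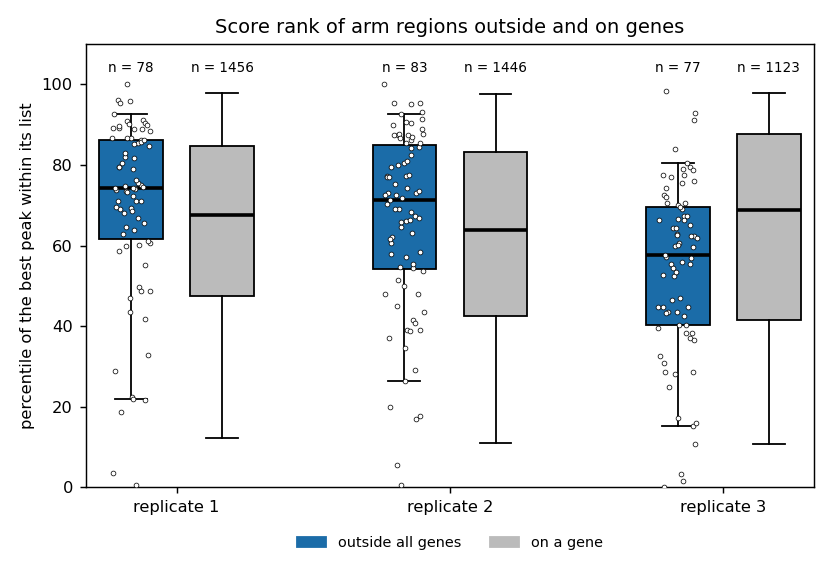
Percentile of the best peak of each region within its list, for arm regions outside genes (blue, points are regions) and on a gene (grey), in the 3 replicates. Boxes span the quartiles with the median, whiskers the 5th and 95th percentiles, and the medians are 74.2 against 67.7, 71.3 against 63.8, and 57.6 against 68.8.

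Most of the regions ranked lowest in replicate 3. Of the 60 in all 3 lists, 54 (90.0%) had their lowest percentile in replicate 3, 3 in replicate 1 and 3 in replicate 2. Arm regions on a gene had theirs in replicate 3 in 479 of 847 cases (56.6%), regions on a pseudogene without a protein-coding gene in 44 of 54 (81.5%) and pericentromeric regions outside genes in 120 of 168 (71.4%). The replicate 3 list was the shortest, with 3661 nuclear peaks against 5237 and 4216, and more of its peaks had a score of at least 100 (50.4%, against 27.5% and 32.0%), so a given score has a lower percentile there. The part of these list properties in the difference was not tested. Across the 89 regions the scores ran alike in the lists: Spearman's rho was 0.91 for replicates 1 and 2 (72 regions), 0.73 for replicates 1 and 3 (66) and 0.76 for replicates 2 and 3 (71), as a description of regions that share libraries.

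**Figure D4:**
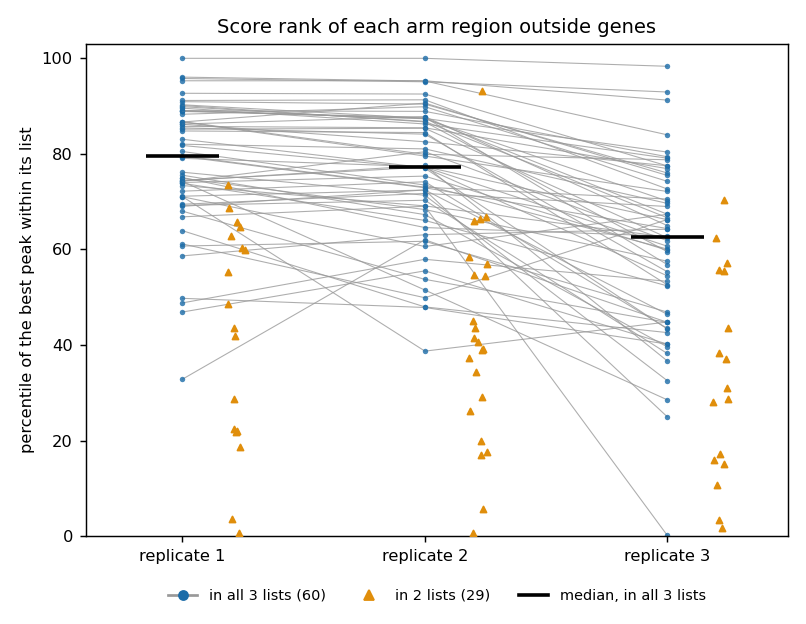
Percentile of the best peak within each list for the 60 regions in all 3 lists (blue, joined by lines) and the 29 in 2 lists (orange). The medians of the 60 are 79.5, 77.2 and 62.5 in replicates 1, 2 and 3, and most lines drop toward replicate 3.

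The 10 strongest of the 60, by their lowest percentile in any list, included the highest scores of the class. The first lay at chr4:7423881-7426085, 2052 bp from AT4G12520 and 1748 bp from AT4G12530, and was also the longest region (2205 bp). Its scores were 3100 in replicates 1 and 2 and 2672.84 in replicate 3, which are the 100, 100 and 98.3 percentiles of the lists. The second, chr5:8155232-8156675, sat between WRKY30 at 521 bp and SIGE at 475 bp, and scored 1675.83, 2035.99 and 1254.49. WRKY30 encodes a WRKY transcription factor of stress responses, and SIGE a sigma factor of the plastid RNA polymerase. The third, chr2:9922856-9924039, lay 846 bp from WRKY15 and 2658 bp from the microRNA gene MIR5016, with 1577.92, 2067.53 and 1071.47. The body of WRKY15 carried a weak region of its own, 534 bp away, with 38.92 and 38.38 in replicates 1 and 2 and no peak in replicate 3.

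The fourth region, chr1:19875345-19876790, lay 1617 bp from AT1G53290 and 2614 bp from TTL1, a tetratricopeptide repeat gene known for osmotic stress responses. Its scores were 1771.27, 2064.08 and 665.12, at the 96.1, 95.3 and 84.0 percentile. The fifth, chr1:5970160-5971824, lay 164 bp from AT1G17410 and had 618.54, 690.78 and 550.24. The sixth, chr1:11454090-11455891, lay 910 bp from AT1G31910 and 2021 bp from NIP3;1, an aquaporin-family gene. The seventh, chr2:9062309-9063342, lay 215 bp from PRP2, which encodes a proline-rich cell wall protein, and 1811 bp from XCT, known for a role in the circadian clock. It had 670.62, 600.25 and 502.07, and XCT carried a further shared region with 273.9, 324.2 and 165.64.

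The other 3 of the 10 also had a score of at least 284.15 in each list. The region chr4:8959472-8960570 lay 1149 bp from SCRL11, a cysteine-rich peptide gene, with 458.45, 284.15 and 496.31, at the 86.8, 79.9 and 78.8 percentile. The shortest of the 10, chr1:5700897-5701294 (398 bp), had 428.46, 381.16 and 462.28 between AT1G16670 and AT1G16680, which both carried a shared region. The one on AT1G16680 was stronger, with 916.17, 1033.33 and 405.22 in replicates 1, 2 and 3. The region chr2:8036202-8037421 had 1066.73, 1347.72 and 461.89, and lay 789 bp from AT2G18520 with a region of 1038.85, 938.35 and 503.79 on the body of that gene.

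**Figure D5:**
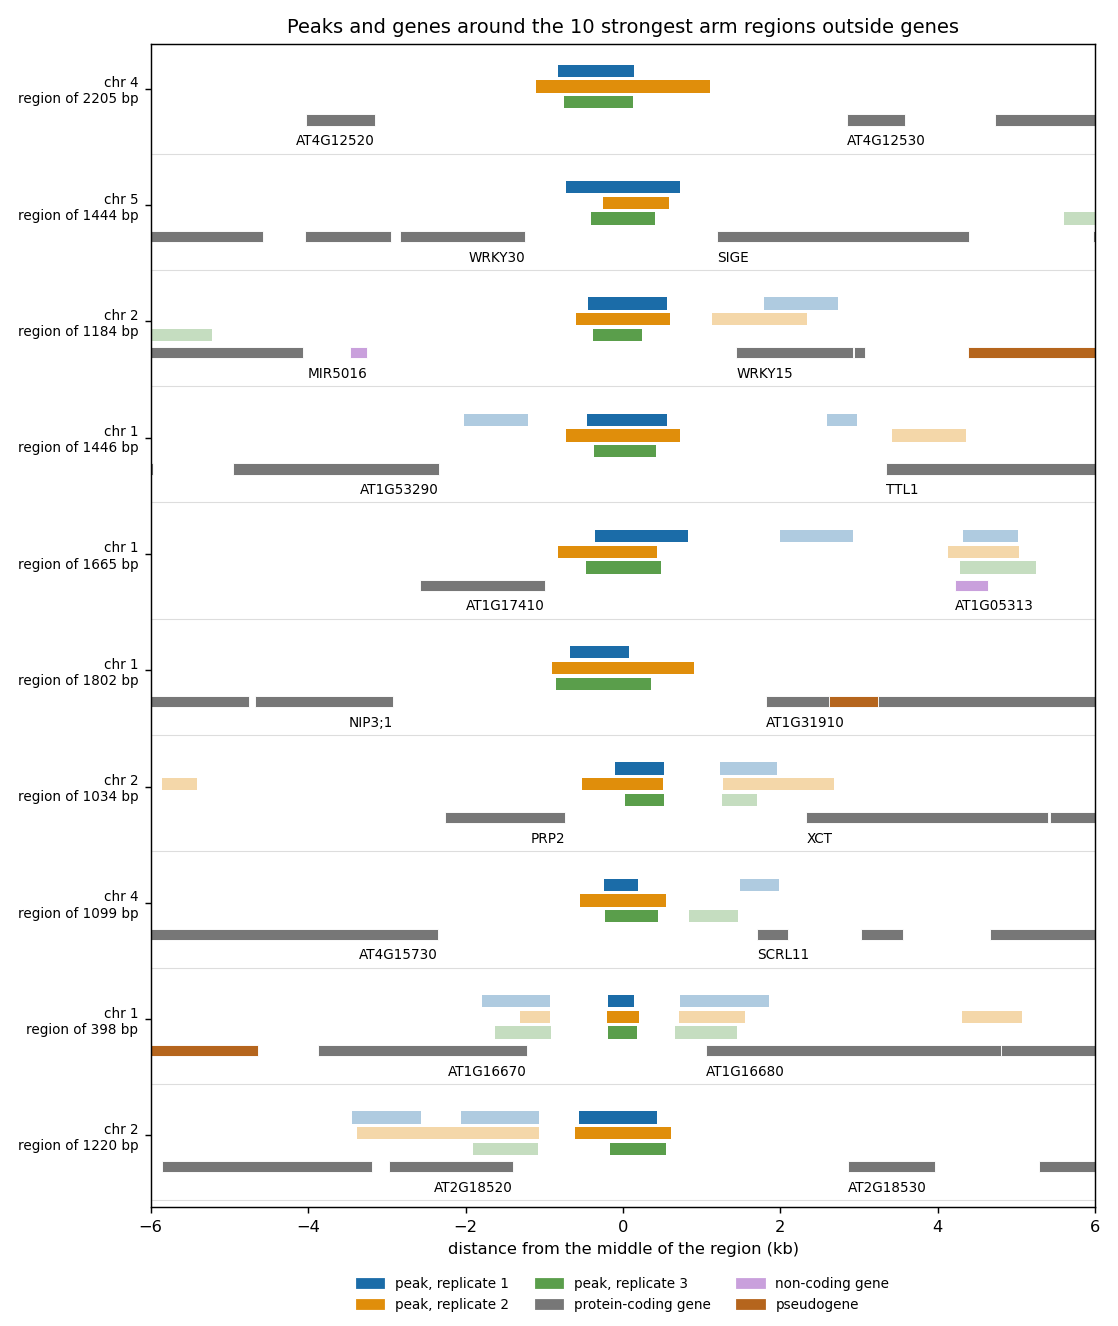
Map of the strongest regions with the peaks of each replicate and the annotated genes around them, drawn by distance (kb) from the region midpoint. Solid bars are the peaks of the region, pale bars other peaks; the first region, of 2205 bp, lies 2052 and 1748 bp from its neighbours, and the shortest, of 398 bp, has peaks on both neighbouring genes.

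By the lowest percentile in any list, the first region of chromosome 3 was chr3:22789935-22790955, with 192.58, 148.99 and 313.88 and a lowest percentile of 70.55, just above the 70.14 of chr3:7278551-7279268, which ranked higher in replicates 1 and 2. It lay 942 bp from HWS, an F-box protein gene of organ growth, and 1962 bp from SLD1, a sphingolipid desaturase gene. The second longest region, chr2:15138724-15140805 (2082 bp), lay between OFP15, an ovate family gene, at 1711 bp and MMZ3, a ubiquitin-conjugating enzyme variant gene, at 1847 bp, and had 740.71, 694.24 and 270.15. The third longest, chr4:7249217-7251253 (2037 bp), lay 1089 bp from AT4G12100 and 2775 bp from SMO1-1, a sterol oxidase gene, with 614.09, 707.97 and 152.3. By the same measure, the last of the 60 were chr3:19622102-19622807 (64.08, 107.99 and 20.02), 1470 bp from AT3G52920 and 3594 bp from GRF4, a growth-regulating factor gene, chr1:24772854-24773420 between CML23 and CAM4, genes of calcium sensors (86.24, 141.77 and 32.03), and chr1:25186060-25186866 near AT1G67270 (115.86, 45.43 and 35.27). All 3 had their lowest percentile in replicate 3, at 0.191, 24.99 and 28.5 in the order given, while other regions of the 60 ranked lower in replicates 1 and 2.

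The 7 pairs within a gap lay beside genes of diverse kinds. Chosen after the values were seen, the pair between JMJD5 (JMJ30), a jumonji histone demethylase gene with a link to the clock, and AT3G20820 is shown in full. The region chr3:7278551-7279268, 130 bp from JMJD5, had 630.88, 688.93 and 307.12. Its partner chr3:7279950-7280671, 120 bp from AT3G20820, had 388.63, 469.56 and 140.37. The body of JMJD5 carried a stronger region, 1704.41, 2373.46 and 1343.27, 1008 bp from the first. The scores of the MYB95 pair, also chosen after the values were seen, were 116.71, 223.16 and 186.93 at chr1:27970925-27972399, 959 bp from the fucosyltransferase gene FUT3, and 853.35, 1126.12 and 356.56 at chr1:27972584-27973479, 1688 bp from MYB95. The 2 members of this pair lay 184 bp apart. The other pairs lay between AT1G10682 and AT1G10690, OFP15 and MMZ3, AT4G12100 and SMO1-1, AT5G45650 and AT5G45660, and MYB28 and AT5G08995.

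The regions that follow were named after their values were seen, as examples with annotated neighbours. The region chr4:6677042-6678435 filled most of the gap between SWEET7, a sugar transporter gene, at 60 bp and AT4G10860 at 230 bp, and scored 456.87, 273.75 and 345.58. The region chr5:3162236-3163436 lay 527 bp from TPPI, a trehalose phosphate phosphatase gene, with 455.5, 1015.6 and 423.33, and TPPI itself carried a region of 655.06, 819.49 and 146.91. The region chr4:15065269-15066435 lay 592 bp from SIP3, a protein kinase gene, with 822.5, 995.87 and 431.97. SIP3 carried a weaker region 137 bp away, with 108.39, 81.32 and 20.23, so the stronger peaks lay outside the annotated gene in each list.

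The region chr5:70523-71867 lay 424 bp from LAC10, a laccase gene, with 693.24, 639.08 and 260.2. The region on LAC10, 114 bp away, had 131.44, 345.28 and 543.73, which was the weaker of the pair in replicates 1 and 2 and the stronger in replicate 3. The region chr3:22766872-22767611 lay 861 bp from ACS1, a gene of ethylene synthesis, with 115.88, 309.82 and 198.17. The region chr1:5098721-5099229 lay 342 bp from AT1G14800 and 450 bp from RDR1, an RNA-dependent RNA polymerase gene, with 124.92, 81.08 and 213.05. The highest score among the 29 regions in 2 lists was 1488.16 in replicate 2, at chr2:18106152-18107564, 108 bp from AT2G43670 and 554 bp from the calmodulin-binding scaffold gene IQD14. That region had 312.1 in replicate 3 and no peak in replicate 1, so a high rank in one list did not come with a peak in every list.

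A weak region could sit beside a strong one. Chosen after the values were seen, the region chr3:5119333-5120586, 272 bp from AT3G15200 and 716 bp from the ethylene response factor gene ERF4, had no peak in replicate 1 and 20.09 and 20.84 in replicates 2 and 3, while the region 104 bp away on ERF4 reached 3100 in all 3 lists. The region chr5:8933927-8934898 lay 42 bp from YUC6, an auxin biosynthesis gene, and 2442 bp from a region on the body of YUC6, which had 276.29, 229.19 and 876.66. A region between RLT2, a chromatin remodelling gene, and GLK2, a chloroplast development regulator, chr5:17794869-17796007, had 428.79, 718.93 and 236.84. Its nearest gene end was 2254 bp away.

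Of 120 genes in the lists of known pathways, 2 bordered a region. Within 5 kb of a region and next to it were 145 of 27444 protein-coding genes. Of 20 floral activators none did, of 21 floral repressors 1, of 20 chromatin regulators none, of 15 photosynthesis genes none, of 14 embryo and seed genes 1, and of 10 clock, 10 floral organ identity and 10 meristem genes none each. The lists do not hold JMJD5, XCT or RLT2, which border a region and have known links to chromatin or the clock, so their counts do not cover every such gene. The repressor was TOE2, an AP2-type repressor of flowering, 3915 bp from chr5:24203030-24203773, with 25.13 and 23.58 in replicates 1 and 2 and no peak in replicate 3. The seed gene was FUS3, a regulator of seed development, 445 bp from chr3:9856658-9857104, with no peak in replicate 1 and 33.87 and 23.6 in replicates 2 and 3. Their percentiles were 28.8 and 17.6 for the region near TOE2, and 41.4 and 10.8 for the one near FUS3. The nearest gene to the first was PUM18, 92 bp away. By symbol alone, the 145 genes included 2 of 67 WRKY genes, 2 of 121 MYB genes, 1 of 24 ERF genes, 1 of 79 NAC genes, 1 of 21 GRF genes and 2 of 229 CYP genes. Whether genes that share a symbol belong to 1 family was not checked.

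The 89 were also set beside the 212 pericentromeric regions outside genes. The median nearest gene end was 592 bp for the 89 and 556 bp for the 212 pericentromeric regions, and the median nearest protein-coding end was 771 bp and 3378 bp. Their median lengths were 841 bp and 792.5 bp. A neighbouring shared region lay within 1000 bp for 31.5% of the 89 and 25.9% of the 212, but within 5 kb for 47.2% and 55.2%, and the median distance to it was 6595 bp and 3731 bp. Of these medians, the distance to protein-coding genes differed the most, and none of the differences was tested.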

How the data were processed

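The submitters' processing notes name MACS 1.4, Bowtie2 2.2.8 and SAMtools 1.3 and the build TAIR10. The authors deposited a separate peak list for each of the 3 ChIP samples. Each peak has a score (10 times the negative log10 of its p-value) in the deposited lists. The sources used here do not give the threshold or the use of input DNA. Depth is unknown. Gene positions came from a RefSeq table of TAIR10.1 (27444 protein-coding, 5612 non-coding, 4843 pseudogenes) with no strand or exons, taken to share nuclear coordinates with TAIR10. Scores were capped at 3100 for percentiles, used only within a list. The mean difference of median percentiles was tested by a two-sided exact sign-flip permutation over the 3 lists, which cannot go below 0.25. The members, the gene lists and alternatives were chosen with earlier results of these data known. Named regions were the 10 first in all 3 lists by lowest percentile, the first per chromosome, the last 3, and the 3 longest, farthest and closest. Also named were the 2 nearest to any arm limit and those next to listed genes. Of the regions left out, the 2 just past a limit and the 2 with the least gene overlap were named. Others are said to be named after their values were seen. Python 3.11.15, pandas 2.3.3 and NumPy 2.4.6 were used, and merging and distances were tested on simulated lists. No sequence was used here.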

Additional observations from a re-analysis of the deposited data

Results flagged for a closer look

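The replicate 3 list held 6 peaks on the chloroplast and mitochondrial genomes, against 3 each in replicates 1 and 2. They are outside the nuclear comparison, and no control sample gives a level to set them against.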

How the results depend on the processing

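Of 51 alternative values, 24 moved by more than 1 SD between lists (counts of regions by more than 1.5 times) and 3 rank differences turned direction. The other 24 did neither by these rules, but 5 of them are rank differences, judged by direction alone. One of these 5, for regions of at most 1000 bp, was 15.3 in place of 0.97, a shift larger than the SD of 10.6 between lists. For shares, distances and lengths the SD was taken over the subsets of the 89 regions with a peak in each list. These subsets share most of their regions, so the SD does not measure the spread between independent replicates. The count of 89 regions was 68 with arm limits moved 1 Mb and 74 to 79 without 1 replicate. Requiring all 3 lists gave 60 regions, medians of 669.5 bp to any gene end, 809.5 bp to a protein-coding end and 963 bp in length, and a rank difference of -6.60 in place of 0.97. Peaks scoring at least 100 left 47 regions, 83.0% of them in all lists and 1077 bp long. An overlap of 50% of the shorter peak gave 526 and 732.5 bp. Protein-coding bodies alone as the exclusion gave 189 regions, with medians of 0 and 1149 bp and a length of 994 bp. Midpoints outside every body gave 225 regions, medians of 0 and 7 bp and a length of 1170 bp. Arm limits moved 1 Mb gave a protein-coding distance of 838 bp. Distances from the midpoint were 1057 and 1206 bp. Regions derived again without 1 replicate gave 613 to 654.5 bp to any gene end, 692 to 789 bp to a protein-coding end and a length of 776 to 813 bp. For the rank difference the 89 regions were kept and 1 list was left out of the mean. This gave -2.32 to 7.07, with -1.84 without replicate 1 and -2.32 without replicate 2. Limited to regions of at most 1000 bp, the rank difference was 15.3, with an exact permutation p of 0.5. The cause of the rank reversals was not tested. The share in all lists has no value where all lists are required. No paired analysis was possible because the input samples have no values used here. Absence of a peak says nothing about the absence of EBS, since depth is unknown.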
